A study of Mus musculus with 12 samples.

Results

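Broad domains of histone H4K12 acetylation were defined from the neurons of control mice as wide stretches over which the peaks of different animals ran together. Overlapping autosomal peaks of the 5 control H4K12ac lists were merged, and a merged region became a broad domain when it was at least 3000 bp wide and held a peak in all 5 control lists. Of 208797 merged regions, 39375 held a peak in all 5 control lists, and 1733 of these (4.40%) were broad domains, which spanned 7135136 bases. Regions with a peak in all 5 control lists are called constant regions below. Coordinates are those of mm10, and genes those of GENCODE. The control lists thus chose the domains, so that the values of *Tip60* cKO and control mice in them are given as a description, without a test. Tests were made on domains that had been chosen from all 10 lists without regard to genotype.

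H4K12ac was profiled by ChIP-Seq in neuronal nuclei, sorted by FACS from whole hippocampi of 5 *Tip60* cKO mice (cKO) and 5 controls. Both alleles of *Tip60* were floxed in all animals, which received tamoxifen, and nuclei were collected at day 10 after the last injection, at a labelled age of 3 months. The cKO carried in addition the *CaMKCreERT2* driver, a tamoxifen-inducible Cre recombinase under *Camk2a* control that is active in postmitotic excitatory forebrain neurons, whereas controls lacked it. Sorted nuclei also include those of neurons in which this driver is not active, in which *Tip60* stays intact. Input chromatin was pooled, with 1 input library per genotype, and replicate numbers name different animals.

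Acetylation of lysines in the tail of histone H4 loosens the contact between histones and DNA and recruits bromodomain proteins. TIP60, encoded by *Kat5*, is a lysine acetyltransferase that acts on histone H4, and H4K12 is one of its target sites. Active promoters and enhancers of a cell carry acetylated histones, and in many cell types unusually wide acetylated stretches lie at genes that characterise the cell.

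To show the kinds of sequence at the domains, 6 stretches of 300 bases are given. Promoters are given for *Neurod2*, a transcription factor of excitatory neurons, for *Slc17a7*, the vesicular glutamate transporter of the same cells, and for *Ttc9b*. In the test reported further on, the *Ttc9b* domain has among the smallest p-values of the domains lower in cKO. Each promoter runs from 250 bases before to 50 bases after the RefSeq start site, on the strand of the gene (GRCm38.p6). Windows around the strongest control summit are given for the widest domains, in introns of *Gse1*, *Coro2b* and *Dscaml1*, on the plus strand. Capitals mark CG dinucleotides.
Neurod2: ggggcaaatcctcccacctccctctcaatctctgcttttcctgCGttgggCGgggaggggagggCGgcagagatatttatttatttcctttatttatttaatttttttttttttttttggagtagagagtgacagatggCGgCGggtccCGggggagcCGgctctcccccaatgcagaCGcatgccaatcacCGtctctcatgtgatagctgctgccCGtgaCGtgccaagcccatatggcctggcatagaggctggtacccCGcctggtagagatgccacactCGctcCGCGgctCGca
Slc17a7: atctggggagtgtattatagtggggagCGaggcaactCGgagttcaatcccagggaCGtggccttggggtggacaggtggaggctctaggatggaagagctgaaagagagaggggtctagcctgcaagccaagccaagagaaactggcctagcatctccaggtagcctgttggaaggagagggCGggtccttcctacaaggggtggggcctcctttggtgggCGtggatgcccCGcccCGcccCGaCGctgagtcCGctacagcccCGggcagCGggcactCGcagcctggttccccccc
Ttc9b: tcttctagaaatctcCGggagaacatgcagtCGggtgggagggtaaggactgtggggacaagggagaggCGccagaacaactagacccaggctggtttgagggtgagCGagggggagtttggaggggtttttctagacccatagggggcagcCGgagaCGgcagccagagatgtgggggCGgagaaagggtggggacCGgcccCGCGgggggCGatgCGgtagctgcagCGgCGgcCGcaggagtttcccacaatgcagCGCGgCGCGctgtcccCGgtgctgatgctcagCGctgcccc
Gse1: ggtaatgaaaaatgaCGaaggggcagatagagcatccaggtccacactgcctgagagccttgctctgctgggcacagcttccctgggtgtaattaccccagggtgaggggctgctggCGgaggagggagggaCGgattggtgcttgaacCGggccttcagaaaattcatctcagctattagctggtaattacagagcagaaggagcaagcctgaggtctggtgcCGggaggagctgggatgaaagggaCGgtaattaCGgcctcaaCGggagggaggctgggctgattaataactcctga
Coro2b: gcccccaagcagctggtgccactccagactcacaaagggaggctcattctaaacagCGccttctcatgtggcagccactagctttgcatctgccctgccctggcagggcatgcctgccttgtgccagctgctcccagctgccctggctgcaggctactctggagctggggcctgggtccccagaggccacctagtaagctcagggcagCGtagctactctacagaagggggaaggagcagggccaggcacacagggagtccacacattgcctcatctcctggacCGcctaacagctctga
Dscaml1: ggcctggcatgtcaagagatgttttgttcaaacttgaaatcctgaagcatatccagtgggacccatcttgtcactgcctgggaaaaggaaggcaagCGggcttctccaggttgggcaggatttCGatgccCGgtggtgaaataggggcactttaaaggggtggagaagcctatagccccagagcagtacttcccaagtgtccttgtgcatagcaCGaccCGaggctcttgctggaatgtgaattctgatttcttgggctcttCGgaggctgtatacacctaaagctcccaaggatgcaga

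The promoters lie at chr11:98329596-98329895 on the minus strand (*Neurod2*, where the domain ends at 98329675 and so holds only the part nearest the gene), chr7:45163671-45163970 on the plus strand (*Slc17a7*) and chr7:27653674-27653973 on the plus strand (*Ttc9b*). They hold 16, 13 and 21 CG dinucleotides, with ratios of observed to expected CG of 0.70, 0.44 and 0.70. The intron windows lie at chr8:120549970-120550269 (*Gse1*), chr9:62531880-62532179 (*Coro2b*) and chr9:45540532-45540831 (*Dscaml1*). They hold 8, 3 and 6 CG dinucleotides, with ratios of 0.37, 0.10 and 0.30, although their GC content of 55.7, 62.0 and 51.7% overlaps that of the promoters (55.3, 63.7 and 65.7%). The GC box GGGCGG, searched on both strands, occurs 2, 3 and 1 times in the promoters and in none of the intron windows.

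Between 22864189 and 37077725 tags per cKO library and between 27418740 and 37923809 per control library entered peak calling, and the autosomal part of the lists held 64012 to 134930 and 93136 to 135680 peaks. The list of cKO mouse 5, from the library with the fewest tags, was the shortest and covered 22.5 Mb, against 41.4 to 59.3 Mb in the other cKO and 39.5 to 65.2 Mb in control lists. Several main values are given without this list as well, whereas values of single genes and of parts of domains include it unless stated otherwise. Such values can move by over 1.5 times when it is left out. Of 6 excitatory neuron markers, 5 or 6 had a peak within 2 kb of the TSS in every list, and peaks covered on average 44.7% of these windows in control and 39.3% in cKO lists. Peaks covered none of the windows of 8 interneuron markers in control lists and up to 1.90% in cKO lists, where up to 3 of these genes had a peak. Mean coverage at markers of other cell types also differed between the genotypes, with no test made. For 5 astrocyte markers it averaged 5.07% in control (3.65 to 6.59%) and 1.79% in cKO lists (0 to 4.80%), and for 6 oligodendrocyte lineage markers 9.14% (8.27 to 10.2%) and 7.76% (5.24 to 10.01%). For 5 microglial markers it averaged 0.979% in control (0 to 1.79%) and 0.0640% in cKO lists (0 to 0.320%), whereas 3 endothelial markers were at 0 in all control lists and averaged 1.28% in cKO lists (0 to 4.56%). The part of other cell types in the results that follow was not tested. Fewer nuclei with the mark and less of the mark per nucleus cannot be told apart in such bulk samples.

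The broad domains had a median width of 3685 bp, ranging from 3001 to 17419 bp. At least 5000 bp were spanned by 278 domains. They were rarely a single peak. A control peak of at least 3000 bp was called within 582 domains in any control list, and in all 5 control lists within only 19, so that most domains became wide by the joining of adjacent peaks. The 3 domains closest above the limit lay in *Pemt*, *Cacna1e* and *Otub2*, and constant regions just below it at *Meis3* and *Tmc6*. In control lists 43.75, 61.60 and 70.98% of the bases of the former and 73.84 and 58.19% of the latter were covered, so that coverage on both sides of the limit overlapped.

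Most broad domains were not promoters. A protein-coding gene started within 389 of them (22.4%), 1036 (59.8%) lay inside a gene without holding its start, and 308 (17.8%) lay outside protein-coding genes. Among the 37642 narrower constant regions the share with a gene start was 10.8% under 1000 bp, 19.8% from 1000 to under 2000 bp and 24.98% from 2000 to under 3000 bp, against 22.4% in the broad domains. Another 165 broad domains held the start of an alternative protein-coding transcript. Introns made up 59.4% and exons 15.6% of the domain bases, compared to 50.9 and 17.3% in regions under 1000 bp. The intragenic domains were in 632 genes with a median length of 94187 bp and lay at a median distance of 43268 bp from the TSS, and 485 of them (46.8%) were more than 50000 bp away from it.

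Some genes held many domains. Of 1079 protein-coding genes that overlapped a broad domain, 123 overlapped 3 or more and 31 overlapped 5 or more. *Gm20388*, a gene model of 4434882 bp that includes *Gse1*, overlapped 21. *Gse1*, which codes for a protein of histone deacetylase complexes, and *Msra*, a methionine sulfoxide reductase, each held 14, *Dscaml1*, a cell adhesion molecule, held 13, *Celf4*, a neuronal RNA-binding protein, held 11 and *Nfix*, a nuclear factor I transcription factor, held 9. The 14 domains of *Gse1* comprised 85852 bases, of which 67.2 ± 15.1% were covered in cKO and 81.3 ± 9.62% in control lists (SD, n = 5). For the 9 domains of *Nfix* the values were 80.8 ± 12.2 and 86.7 ± 8.38%, and for the 8 domains of *Rbfox3*, which encodes the neuronal nuclear antigen NeuN, 73.2 ± 15.8 and 79.8 ± 10.4% (SD, n = 5). In *Gse1*, *Nfix* and *Rbfox3* cKO mouse 5 was the lowest, at 45.3, 62.0 and 48.0%. The other cKO had 63.3 to 82.0, 78.5 to 92.8 and 70.3 to 88.2%. This mouse carried much of each difference, and nearly all of it in *Rbfox3*. Per 100 protein-coding genes, chromosome 15 carried the most domains (14.9) and chromosome 1 the fewest (4.80).

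The ratio of observed to expected CG dinucleotides differed with position, and with width most where only an alternative transcript start was present. In windows of 300 bp around the strongest control summit, the median CG ratio was 0.71 in broad domains with a gene start, 0.42 in those with only an alternative transcript start and 0.23 in the 1179 others, and the values in narrower regions were 0.79, 0.73 and 0.25. A ratio above 0.6 was found in 67.3% of broad domains with a gene start, and in 78.3% of the narrower regions of that kind. The GC box GGGCGG was present on either strand in 54.5% of the windows of domains with a gene start and in 15.1% of those without any coding transcript start (60.3 and 14.6% in narrower regions). The E-box CAGATG, of the type bound by NEUROD factors, was found in 15.7 and 27.8% of these windows (10.6 and 25.2% in narrower regions). The AP-1 motif TGANTCA occurred in 5.60% of all domain windows, against 6.92% in regions under 1000 bp, and the cyclic AMP response element TGACGTCA in 0.346 and 0.410%. CCAAT and TATAAA were found in 21.5 and 4.10% of domain windows and in 24.4 and 6.18% of the windows of regions under 1000 bp. All motifs were searched on both strands, and a match of letters is no evidence of binding. RefSeq start sites were matched for 310 of the 427 genes that start in a domain, with 445 promoters. Of these 60.7% held GGGCGG, against 35.7% of all 32851 promoters of the table, which were not limited to H4K12ac regions. RefSeq promoters in narrower regions were not compared.

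Nearly all broad domains retained peaks in cKO neurons, and the peaks covered less of them. A peak was found in all 5 cKO lists at 1710 domains (98.7%), in 4 lists at 22 and in 3 lists at 1. The covered share of the domain bases was 74.3, 62.5, 71.9, 59.5 and 39.0% in cKO 1 to 5, and 79.3, 83.1, 73.9, 61.4 and 82.3% in controls 1 to 5. The genotypes overlapped, as cKO 1 to 3 were above control mouse 4, and cKO mouse 5 was the lowest of all. The means were 61.5 ± 14.0% in cKO and 76.0 ± 8.92% in controls (SD, n = 5), a difference of −14.6 percentage points. Without cKO mouse 5 the difference was −8.95, and without this mouse and control mouse 4, which had the fewest tags among the controls, it was −12.6. By the sequencing lane that the names of the deposited files give, which the labels do not state, it was −9.21 in lane 7 (replicates 1 to 3) and −22.6 percentage points in lane 8 (replicates 4 and 5).

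The longest peak of a domain had a median of 1617, 1128, 1564, 1132 and 662 bp in cKO 1 to 5 and of 1789, 2002, 1529, 1141 and 1932 bp in controls 1 to 5. The genotypes overlapped, with means of 1221 ± 388 and 1679 ± 351 bp (SD, n = 5). Between 3.33 and 4.05 peaks per domain were called in cKO and between 2.91 and 3.74 in controls, so that the number of peaks overlapped as well. The median pileup, the height of overlapping fragments at the strongest summit per 1000000 tags of the library (normalised pileup), was 0.836, 0.731, 0.927, 0.820 and 0.787 in cKO 1 to 5. In controls 1 to 5 it was 0.976, 1.001, 0.978, 0.912 and 0.923. Here only cKO mouse 3 reached into the range of the controls. Pileup also depends on the length of the fragments, which MACS estimated at 195 ± 12.2 bp for cKO and 204 ± 7.19 bp for controls (SD, n = 5). The input background at the strongest peak of a domain was 1.04 ± 0.0162 times the genome-wide level in cKO and 1.17 ± 0.00835 times in control lists (SD over 5 lists that share 1 input). For these domains, their part in the difference was not tested.

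Narrower regions chosen by the same 5 control lists had lower ratios of coverage than the broad ones. In regions under 1000 bp 44.1% of the bases were covered in cKO and 66.9% in control lists, from 1000 to under 2000 bp 47.3 and 66.3%, and from 2000 to under 3000 bp 54.9 and 71.5%. The ratio of cKO to control coverage was thus 0.659, 0.714, 0.768 and 0.808 from the narrowest to the broadest class, whereas the ratio of the pileup was 0.822, 0.874, 0.856 and 0.856. On average 75.8% of the regions under 1000 bp and 99.7% of the broad domains had a peak in a cKO list. The choice of regions by control peaks acts on every class, and its part in these ratios was not tested.

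**Figure D1:**
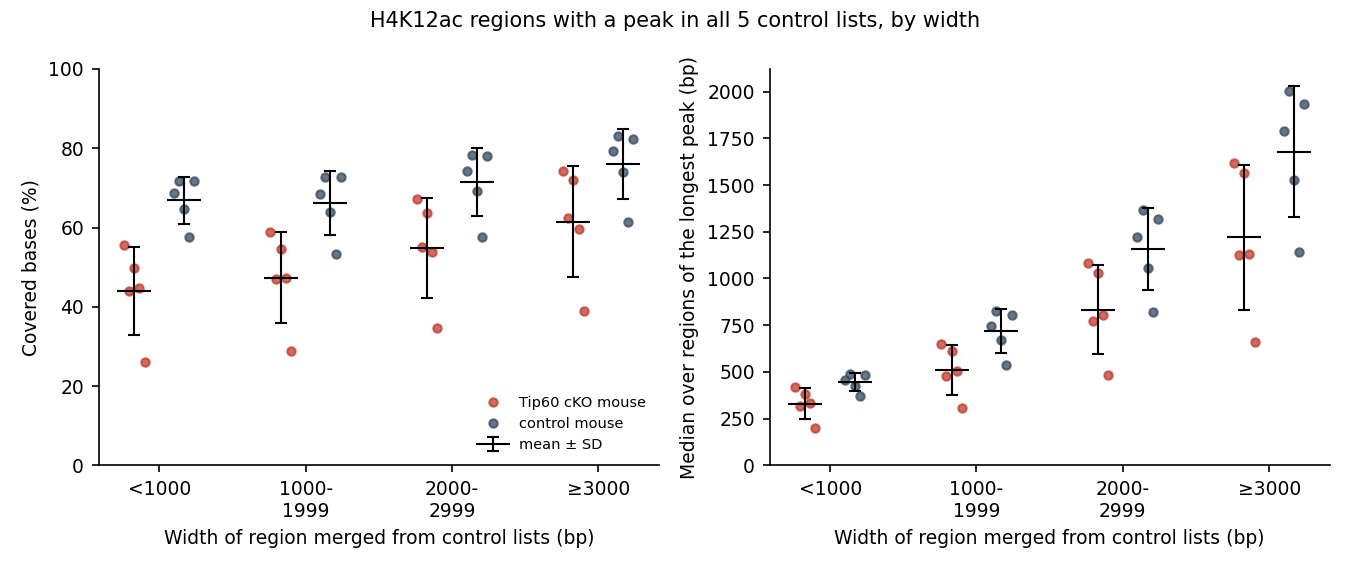
Covered bases in percent (left) and median over regions of the longest peak in bp (right) for regions with a peak in all 5 control lists, in 4 width classes. Points are single mice, bars are mean ± SD (n = 5), and in the class of at least 3000 bp the cKO lie between 39.0 and 74.3% and the controls between 61.4 and 83.1%.

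Single domains followed the same direction with wide overlap. The mean covered share was lower in cKO at 1662 of 1733 domains (95.9%) and higher at 71, and without cKO mouse 5 it was lower at 1454 (83.9%). Of all 39375 regions with a peak in all control lists 92.6% were lower, and 84.6% without that mouse, so these shares were close to those of all regions. Every cKO list was below every control list at 121 domains (6.98%), and the reverse was found at none. The same separation was seen at 9.98% of all these regions for the lower and at 0.0203% for the higher direction, so the share among the broad domains was below this level. For the pileup all cKO lists were below all control lists at 176 domains (10.2%) and above at 2, compared to 9.62% and 0.0711% of all these regions. The median difference in coverage over domains was −14.5 percentage points, with quartiles of −20.7 and −8.41.

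**Figure D2:**
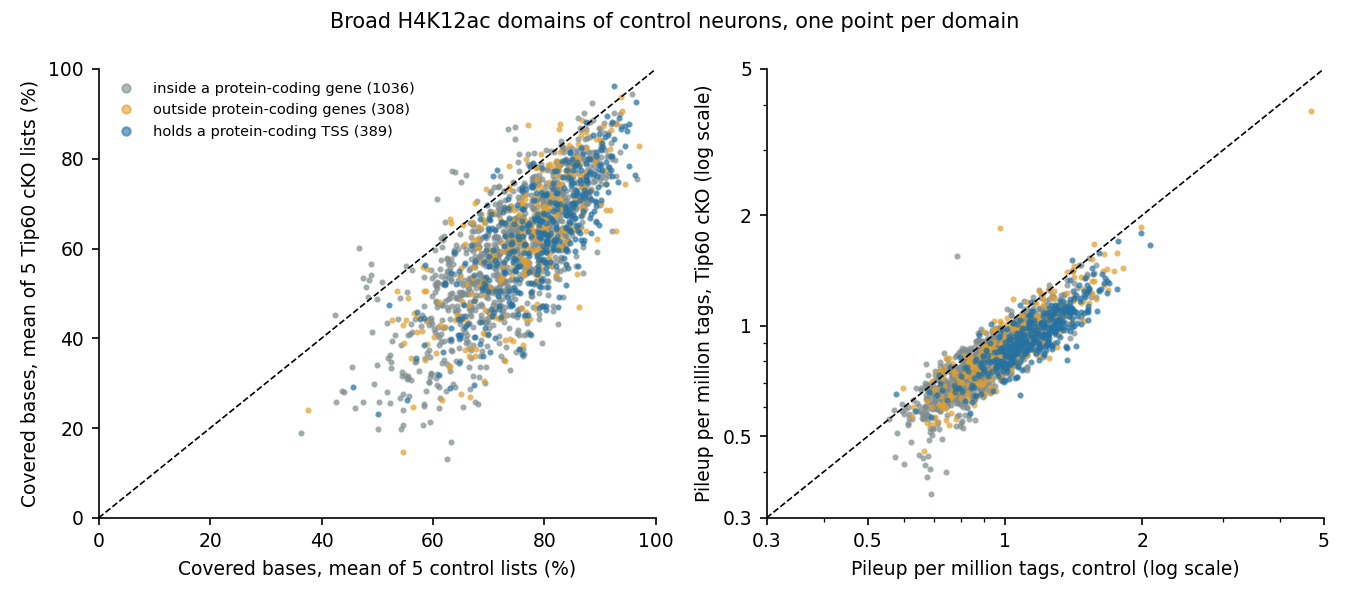
Mean covered bases in percent (left) and mean pileup per 1000000 tags on log axes (right) of each of the 1733 broad domains, control on the horizontal and cKO on the vertical axis. Points are domains, coloured by position relative to protein-coding genes, and the dashed line marks equal values, with 1662 domains below it in the left panel.

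As the control lists had chosen the domains, 1 control list at a time was left out of the choice and then read. Between 1216 and 1578 domains were chosen by 4 control lists. Peaks of the list left out covered 79.6, 83.9, 74.6, 61.4 and 82.9% of their bases for controls 1 to 5, on average 76.5 ± 9.14%, and the 4 lists that had chosen them covered 79.1 ± 1.049%. cKO lists covered 64.1 ± 1.09% of the same domains (SD over 5 choices), while the SD between the 5 cKO mice was 13.87 to 14.09 percentage points. All 5 cKO lists were below the control list left out for controls 1, 2 and 5, 4 were below it for control mouse 3 and 2 for control mouse 4. When the rule was applied to the 5 cKO lists instead, it gave 1064 domains with 4411720 bases, of which 71.2 ± 15.6% were covered in cKO and 75.1 ± 8.21% in controls (SD, n = 5). Of the 1733 control domains 747 (43.1%) overlapped a domain of cKO, and 744 of those 1064 (69.9%) overlapped a control domain.

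Domains at promoters extended asymmetrically around the TSS. The 352 domains with a single protein-coding TSS reached a median of 2544 bp downstream and 1094 bp upstream, and 283 of them (80.4%) reached farther downstream. Coverage in controls was highest in the first 500 bp after the TSS, at 92.9 ± 3.48%, and fell to 68.0 ± 9.99% at 2000 to 2500 bp upstream and to 70.0 ± 10.8% at 2000 to 2500 bp downstream. In cKO it was 83.2 ± 8.80% in the first 500 bp and 48.9 ± 17.6 and 55.0 ± 14.5% in the same distant bins (SD, n = 5). Over all 389 domains with a gene start, bases within 500 bp of a TSS were covered to 76.8 ± 10.9% in cKO and 89.0 ± 4.39% in controls, and the other bases to 59.6 ± 13.3 and 76.1 ± 8.56% (SD, n = 5). The ratios were 0.863 and 0.783. Domains with a gene start were covered to 63.8 ± 12.7% in cKO and 79.3 ± 7.52% in controls, those inside genes to 60.1 ± 14.5 and 74.5 ± 9.54%, and those outside genes to 62.9 ± 13.9 and 76.9 ± 8.65%. Median normalised pileup in controls was 1.14 ± 0.0662 with a gene start, 0.904 ± 0.0306 inside and 0.993 ± 0.0313 outside genes, and in cKO 0.928 ± 0.0868, 0.797 ± 0.0682 and 0.864 ± 0.0769 (SD, n = 5).

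**Figure D3:**
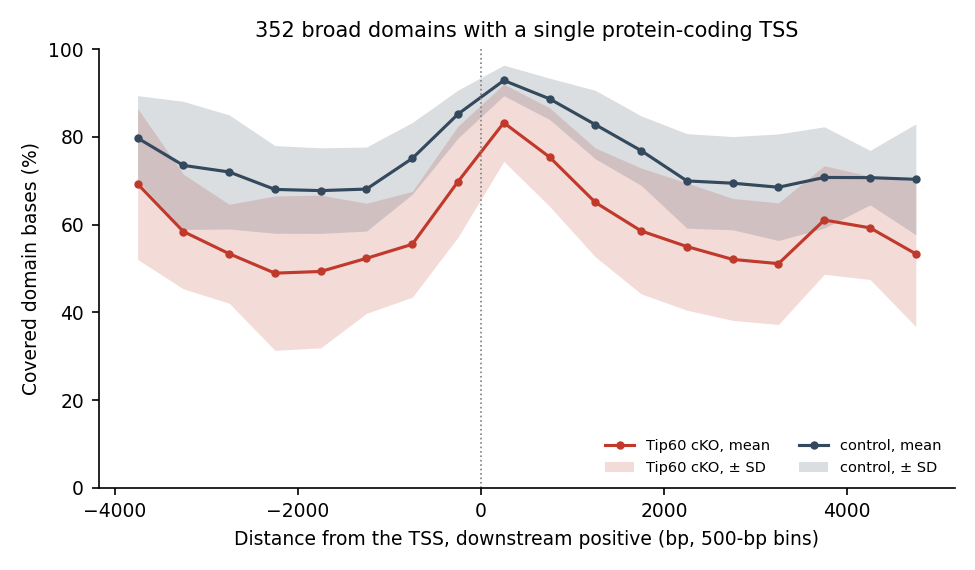
Covered domain bases in percent against the distance from the TSS in bins of 500 bp, for the 352 broad domains with a single protein-coding TSS. Lines are means and shaded areas are SD over 5 mice per genotype, with 83.2% in cKO and 92.9% in controls in the first bin after the TSS. The bin farthest upstream rests on 13 domains.

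The widest domain, of 17419 bp, lay in *Gse1* (chr8:120547435-120564853), 318979 bp from its annotated start. It was covered to 83.5, 67.1, 85.1, 74.7 and 46.1% in cKO 1 to 5 and to 87.5, 93.8, 90.0, 74.8 and 93.5% in controls 1 to 5. Only control mouse 4 fell among the cKO values, and the domain was split into a mean of 14.2 peaks in cKO and 10.8 in control lists. The domain in *Dscaml1* (chr9:45535312-45547920) was covered to 75.8, 54.3, 65.6, 61 and 20.3% in cKO and to 76.9, 80.3, 78.4, 69.4 and 84.2% in controls. All cKO but the first were below all controls.

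By contrast, the domains in *Coro2b*, which encodes an actin-binding coronin, and *Nfix* had smaller mean differences, which rested on 1 mouse. The *Coro2b* domain (chr9:62518327-62533668) was covered to 80.2 ± 17.2% in cKO and 87.1 ± 5.47% in controls, with 52.1% in cKO mouse 5 and 77.9 to 95.4% in the other cKO. For the domain in *Nfix* (chr8:84777118-84789055) the values were 87.2 ± 12.8 and 93.7 ± 4.25% (SD, n = 5), with 66.1% in cKO mouse 5 and 85.2 to 98.0% in the other cKO. In *Rtn4r*, the receptor of the myelin inhibitor Nogo, the domain (chr16:18143828-18154514) had 90.3 ± 7.79% in cKO and 87.1 ± 7.20% in controls. Of its 10687 bases 8581 lay within a protein-coding gene. With all 5 cKO mice included, the *Rtn4r* domain was the only one among the 10 widest with a higher mean in cKO. The other wide domains lay in *Kdm4b*, a histone lysine demethylase (69.4 ± 15.8 and 86.8 ± 9.20%), in *Sh3bp5* (71.7 ± 16.3 and 73.7 ± 18.7%) and in *Klhl26* (75.2 ± 15.9 and 79.0 ± 12.6%), upstream of *Tcf4*, a basic helix-loop-helix factor (69.9 ± 15.8 and 78.6 ± 17.9%), and across the starts of *Lrrc26* and *Tmem210* (67.8 ± 20.5 and 80.0 ± 10.8%). Differences of the 10 widest domains ranged from −22.4 to 3.18 percentage points. In *Sh3bp5* cKO mouse 5 had 53.49%, against 56.47 to 88.66% in the other cKO, and in *Klhl26* 49.55%, against 70.32 to 88.13%. In these 2 domains and in *Coro2b* the lower mean in cKO depended on this mouse, and without it the mean was higher in cKO.

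**Figure D4:**
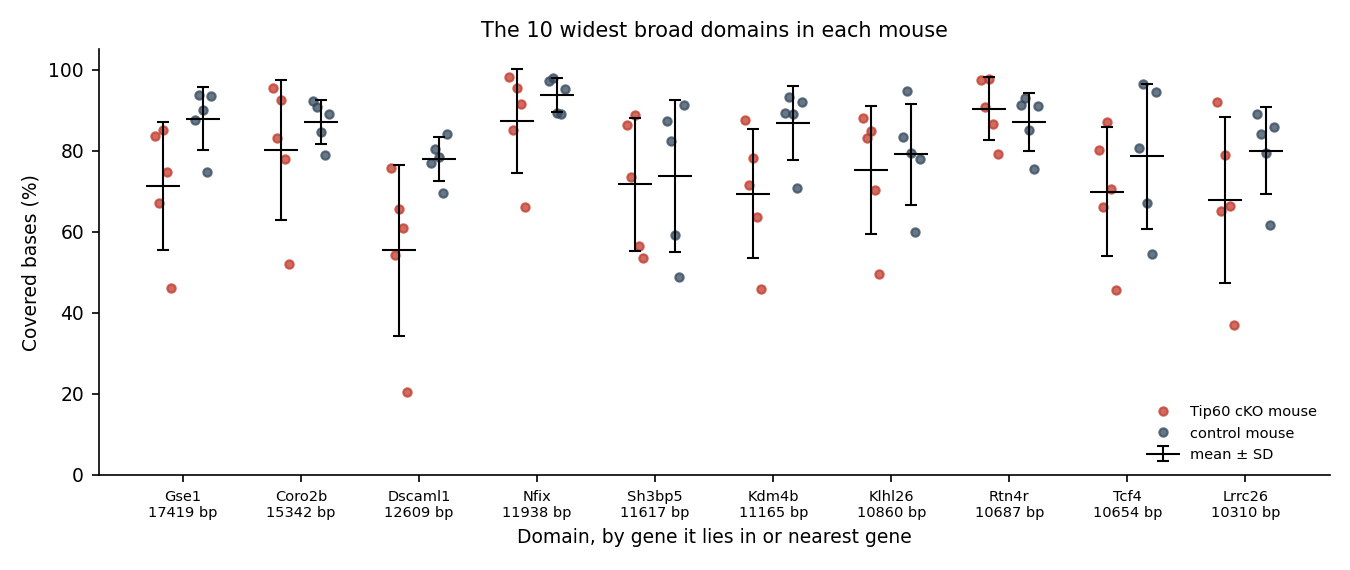
Covered bases in percent of the 10 widest broad domains, by the gene a domain lies in or the nearest gene. Points are mice and bars mean ± SD (n = 5), and the genotypes overlap in each domain.

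Of the 5 domains with the highest control pileup, 3 lay at promoters and 2 outside genes. A domain 63154 bp from the start of *Pdia4* (chr6:47746941-47750276) had a normalised pileup of 4.68 ± 0.200 in controls and 3.84 ± 0.271 in cKO, and its input background was 7.85 and 6.37 times the genome-wide level, so that the input stood out at this place as well. At the other 4 the input was at 1.07 to 1.75 times that level in controls. They were the promoter of *Setd1b*, an H3K4 methyltransferase subunit (2.08 ± 0.475 and 1.66 ± 0.229), the promoter of *Zfp532* (1.99 ± 0.338 and 1.79 ± 0.279), a domain near *Ski*, a repressor of SMAD signalling (1.99 ± 0.226 and 1.86 ± 0.331), and the promoter of *Mettl24* (1.77 ± 0.218 and 1.70 ± 0.360; control first, SD, n = 5). The mean difference in coverage ran from −20.7 to −2.39 percentage points in these 5 domains.

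The 5 domains with the largest negative difference in coverage measured 3137 to 3459 bp, and all lay inside genes away from their starts. All but the one in *Fam84b*, which held 2937 exon bases, were mainly intronic. In *Ttc4* (chr4:106663975-106667234) 13.2, 7.55, 13.2, 17.2 and 14.6% of the bases were covered in cKO 1 to 5 and 68.7, 75.5, 38.4, 52.2 and 77.6% in controls 1 to 5. In *Slit3*, which codes for an axon guidance ligand (chr11:35633187-35636641), the values were 19.4, 27.7, 23.4, 13.6 and 0% against 69.6, 47.3, 58.1, 69.9 and 71.7%. No cKO mouse reached the lowest control in either domain. Domains in *Tbc1d22a* (25.4 ± 18.5 and 68.0 ± 6.88%), *Fam84b* (25.8 ± 12.7 and 67.6 ± 3.73%) and *Disc1*, a scaffold protein of neuronal development (32.9 ± 13.8 and 73.9 ± 11.5%; cKO first, SD, n = 5), were separated in the same way. As they were picked as extremes of 1733 differences, these values are descriptions.

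At the other end, 5 domains had 12.3 to 13.8 percentage points more coverage in cKO, and the genotypes overlapped in all of them. They lay in *Kcnc4*, a voltage-gated potassium channel (77.3 ± 9.21 and 63.5 ± 17.8%), *Elfn2* (60.2 ± 18.6 and 46.8 ± 25.9%), *Cacna1h*, a T-type calcium channel (77.2 ± 19.02 and 63.99 ± 15.3%), *Pfkp*, a phosphofructokinase (86.6 ± 12.4 and 73.5 ± 7.93%), and *Tmem151b* (87.1 ± 10.4 and 74.8 ± 12.6%; cKO first, SD, n = 5). The input background was 1.045 to 1.11 times the genome-wide level in cKO and 1.44 to 2.09 times in control lists in the first 3 of these, 1.58 and 1.38 times in *Pfkp*, and 1.02 and 1.01 times in *Tmem151b*. The ratio of cKO to control pileup was 0.815, 0.935 and 0.889 in the first 3, 1.07 in *Pfkp* and 1.09 in *Tmem151b*.

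A different pattern was found at *Camk2a*, the kinase gene whose regulatory sequence drives the Cre transgene. Just upstream of its TSS (chr18:60920672-60925529) the normalised pileup of a broad domain was 1.67, 1.73, 2.46, 1.70 and 1.62 in cKO 1 to 5 and 1.09, 1.06, 1.04, 0.802 and 0.870 in controls 1 to 5. In the domain within the gene (chr18:60927372-60930791) it was 1.55 ± 0.548 and 0.783 ± 0.0629 (SD, n = 5). All cKO were above all controls, and these were the 2 domains of that kind named above. The covered shares overlapped, at 87.6 ± 18.2 and 77.0 ± 13.5% in the first and 79.0 ± 18.2 and 82.1 ± 8.65% in the second domain (SD, n = 5). The input background was also higher around them, at 2.86 ± 0.0610 times the genome-wide level in cKO and 1.42 ± 0.0308 times in control lists (SD over 5 lists that share 1 input). How much of the higher pileup comes with the input was not tested.

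Genes were grouped in 8 lists by role. The TSSs of 427 of 20780 protein-coding genes (2.05%) lay in a broad domain, and of 7052 genes whose TSS lay in a constant region 6.06% did. For excitatory neuron transcription factors it was 7 of 36 (19.4%), for synaptic proteins and channels 15 of 52 (28.8%), for immediate early genes 2 of 41 (4.88%), for housekeeping genes 2 of 30 (6.67%), for chromatin and TIP60 complex genes 2 of 34 (5.88%) and for glial and vascular genes 1 of 26 (3.85%). Among the genes of these lists whose TSS lay in a constant region, the same domains held 7 of 18 excitatory factors (38.9%), 15 of 37 synaptic genes (40.5%), 2 of 14 immediate early genes (14.3%), 2 of 13 housekeeping genes (15.4%), 2 of 20 chromatin genes and 1 of 5 glial and vascular genes, to be read against the 6.06%. None of 19 interneuron genes and none of 37 developmental regulators of other tissues was in a broad domain, and only 1 of the former and none of the latter had its TSS in a constant region.

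The transcription factors included *Neurod1*, *Neurod2*, *Bcl11a*, *Bhlhe22*, *Nfix* and *Klf9*, and the 7 domains had a median width of 4422 bp. Their mean covered share was 66.3 ± 12.8% in cKO and 81.3 ± 8.12% in controls (SD, n = 5), and it was lower in cKO at all 7, as it was at 382 of the 389 domains with a gene start. The domain of *Bcl11a*, a zinc finger transcription factor, spanned 7583 bp and was covered to 71.9 ± 8.38% in cKO and 85.2 ± 8.61% in controls, and that of *Neurod2*, beginning near the promoter shown above, to 70.2 ± 19.3 and 82.0 ± 9.46% (SD, n = 5). In *Neurod2* cKO mouse 5 had 38.15%, against 70.97 to 90.18% in the other cKO. *Klf9*, a Krüppel-like factor that responds to glucocorticoids, had 51.7 ± 7.58% in cKO and 79.1 ± 7.63% in controls (SD, n = 5). It was the only one of the 7 in which every cKO list was below every control list. Such separation was found at 34 of all 389 domains with a gene start (8.74%).

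All 15 domains of synaptic genes had a lower mean in cKO, with a median difference of −19.4 percentage points compared to −15.6 for all domains with a gene start. None of the 15 was fully separated, against 34 of all 389 domains with a gene start (8.74%). At that share, finding none among 15 does not set these genes apart. The postsynaptic scaffold genes *Shank3* (61.1 ± 9.94 and 80.4 ± 5.12%), *Dlgap3* (73.6 ± 10.8 and 77.8 ± 5.99%) and *Baiap2* (65.2 ± 23.7 and 79.0 ± 14.0%) were among them, as were the NMDA receptor subunits *Grin2a* (69.9 ± 17.8 and 82.2 ± 9.35%) and *Grin2b* (63.5 ± 24.99 and 86.3 ± 13.7%). Presynaptic genes were *Slc17a7*, whose promoter is shown above (77.5 ± 17.6 and 91.9 ± 2.62%), the complexins *Cplx1* (50.6 ± 24.0 and 69.8 ± 18.4%) and *Cplx2* (59.7 ± 14.3 and 81.6 ± 11.7%), and *Vamp2*, the vesicle SNARE (49.3 ± 14.2 and 73.3 ± 16.4%). *Nptx1*, a pentraxin that clusters AMPA receptors, had the lowest covered share of the list in cKO (46.9 ± 18.1 and 82.5 ± 8.78%). The calcium/calmodulin kinase gene *Camk2b* (59.9 ± 16.99 and 83.9 ± 13.1%), the kinase inhibitor gene *Camk2n1* (79.8 ± 8.58 and 83.7 ± 10.2%) and the sodium channel gene *Scn8a* (51.5 ± 15.3 and 79.4 ± 15.1%; cKO first, SD, n = 5) were also in the list. In *Slc17a7* cKO mouse 5 had 48.71%, against 73.60 to 93.55% in the other cKO.

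Among the remaining lists, the immediate early genes were *Egr3* (72.3 ± 20.3 and 89.2 ± 9.59%) and *Nr4a3* (50.3 ± 18.8 and 77.5 ± 8.09%). *Gapdh* (61.9 ± 18.9 and 87.1 ± 11.4%) and *Eno2* (60.2 ± 22.2 and 81.6 ± 10.2%) were the 2 genes of the housekeeping list. As *Eno2* encodes the neuronal form of enolase, the share of that list rests in part on a neuronal gene. *Brd2*, a reader of acetylated histones, had the highest control coverage of the domains named here (92.6 ± 6.53 and 96.4 ± 2.97%), followed in its list by the DNA methyltransferase *Dnmt3a* (82.0 ± 8.37 and 90.2 ± 8.54%). The glial gene was *Sox8* (72.2 ± 14.1 and 80.3 ± 8.07%; cKO first, SD, n = 5), with 49.30% in cKO mouse 5 and 69.22 to 85.84% in the other cKO. The ratio of cKO to control pileup at the named genes of the 8 lists ran from 0.682 (*Egr3* and *Klf9*) to 0.867 (*Scn8a*).

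To compare the genotypes by a test, peaks of all 10 lists were merged. This gave 23689 regions with a peak in every list, of which 2992 were at least 3000 bp wide, and 587 of these held a protein-coding TSS. As this choice treats all libraries alike, each measure was tested by exact two-sided permutation between the 5 mice of each genotype, which allows no p below 0.00794, and the p-values of 8 measures were adjusted together (Benjamini-Hochberg). These shared domains overlapped 1716 of the 1733 broad domains of control neurons (99.0%), and 1680 of the 2992 (56.2%) overlapped such a domain.

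None of the 8 measures of the shared domains passed after adjustment, and before it only their height did. Their median normalised pileup was 0.809, 0.704, 0.895, 0.790 and 0.787 in cKO 1 to 5 and 0.917, 0.942, 0.915, 0.875 and 0.896 in controls 1 to 5. Only cKO mouse 3 overlapped the controls, and the means of 0.797 ± 0.0682 and 0.909 ± 0.0250 differed by −0.112 (SD, n = 5; permutation p = 0.0159, adjusted p = 0.127). Divided by the fragment length as well, a scaling chosen after seeing the data, the pileup had a permutation p of 0.00794, but as the deposited fold enrichment over input it did not differ by more than the spread (5.58 and 5.73; permutation p = 0.286). Single peaks of at least 3000 bp numbered 217, 55, 204, 51 and 4 in cKO and 232, 332, 135, 40 and 322 in controls. Each genotype held libraries with few such peaks, and the means of 106 ± 97.4 and 212 ± 125 were not separated (permutation p = 0.175, adjusted p = 0.279).

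Coverage of the shared domains was 56.7 ± 14.5% in cKO and 66.9 ± 9.03% in controls (SD, n = 5; permutation p = 0.230, adjusted p = 0.307). Within 500 bp of a TSS it was 75.2 ± 11.0 and 86.3 ± 4.44% (permutation p = 0.0556, adjusted p = 0.206), and in the other bases of domains with a TSS 56.7 ± 13.7 and 68.5 ± 8.30% (permutation p = 0.103, adjusted p = 0.206). cKO mouse 5 had the lowest coverage in all 3 measures, at 34.02, 57.4 and 35.6%. Without that mouse the differences were −4.51 percentage points in place of −10.2, −6.61 in place of −11.1 and −6.59 in place of −11.8. The number of peaks per domain was 3.8 ± 0.348 and 3.65 ± 0.147 (permutation p = 0.405, adjusted p = 0.405). This difference of 0.154 was 0.0305 without cKO mouse 2, 0.1003 without control mouse 2 and 0.266 without cKO mouse 5.

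A difference between shared domains and the rest of the peaks was not detected after adjustment either. Their pileup relative to that of narrower regions of the same library was 1.22 ± 0.0417 in cKO and 1.19 ± 0.0201 in controls (permutation p = 0.270, adjusted p = 0.308, n = 5), a difference of 0.0269 that was 0.0131 without cKO mouse 3. Of all bases covered by peaks, 17.4 ± 1.53% lay in shared domains in cKO and 15.8 ± 1.01% in controls (permutation p = 0.0794, adjusted p = 0.206), a difference of 1.62 percentage points that was 1.02 without cKO mouse 5. All 5 cKO were above the median of the controls in this share, but cKO mouse 1 only barely (15.58 against 15.57%). Control mouse 4 (17.31%) was above cKO 1, 3 and 4 and below cKO 2 and 5 (17.59 and 19.78%). Within lane 7, as read from the file names, the differences were −0.122 in median pileup, −4.51 percentage points in coverage and 1.14 in the share of covered bases, and within lane 8 −0.0976, −18.7 and 2.33. The difference in pileup relative to narrower regions changed sign between the lanes (0.0557 in lane 7 and −0.0162 in lane 8), as did that in peaks per domain (0.295 and −0.0590). In median pileup all cKO were below all controls within each lane. Coverage within 500 bp of a TSS was 75.61 to 85.83% in cKO and 85.83 to 89.95% in controls in lane 7. In lane 8 it was 57.38 to 74.82% and 78.79 to 87.86%. The 8 exact tests did not take lane into account, and with 3 or 2 mice per genotype no exact test within a single lane can pass.

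**Figure D5:**
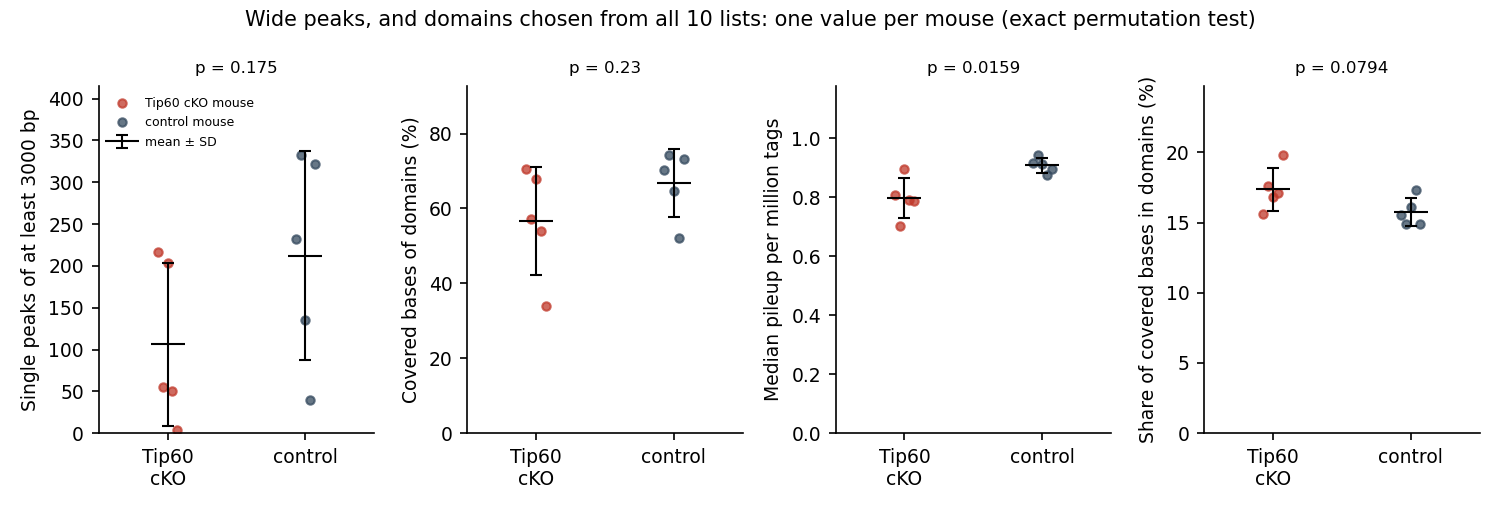
Number of single peaks of at least 3000 bp, and coverage in percent, median normalised pileup and share of all covered bases in percent for the 2992 domains chosen from all 10 lists. Points are mice and bars mean ± SD (n = 5), with the p of the exact permutation test, which is 0.0159 for the median pileup (0.704 to 0.895 in cKO and 0.875 to 0.942 in controls).

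Single regions were compared with limma on log2 normalised pileup. With a Benjamini-Hochberg adjusted p under 0.05 by limma, 291 of the 2992 shared domains were lower in cKO and 4 higher. Among all 23689 regions 11.8% were lower and 0.0591% higher, so that the share of lower domains (9.73%) was not above that of all regions. Of the 1680 shared domains that overlap a broad domain of control neurons, 181 were lower and 1 was higher. The median of all regions was shifted by −0.22 on the log2 scale, and relative to this shift 0 domains were lower and 4 were higher by limma (101 and 104 at an unadjusted p below 0.05). With the deposited fold enrichment 80 were lower and 20 higher, and with scaling by fragment length as well 91 and 4. The number of lower domains was 86, 522, 174 and 167 without cKO mouse 2, 3, 4 or 5, and 122, 81 and 96 without control mouse 1, 2 or 3.

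The smallest p-values among lower domains were found at *Fam171a2*, *Pnma2*, *Ttc9b*, *Rnf112* and *Nrxn2*, and all but the one at *Rnf112* overlapped a broad domain of control neurons. In the promoter domain of *Fam171a2* (chr11:102445346-102449028) the normalised pileup was 0.971, 0.704, 0.927, 0.698 and 0.744 in cKO 1 to 5 and 1.54, 1.56, 1.45, 1.17 and 1.11 in controls 1 to 5. All controls were above all cKO, and the log2 difference was −0.76 with a standard error of 0.14 (limma, adjusted p = 0.00178). The values for *Pnma2*, a paraneoplastic Ma antigen of neurons (chr14:66909159-66912653), were 0.648 ± 0.0818 and 1.08 ± 0.134 (log2 difference −0.74, adjusted p = 0.00252 by limma), and for *Ttc9b* (chr7:27652663-27657161) 0.879 ± 0.1001 and 1.43 ± 0.240 (−0.70, adjusted p = 0.00286 by limma). At the promoter of *Rnf112*, a neuronal ring finger protein, the log2 difference was −0.68 (adjusted p = 0.00356 by limma), and within *Nrxn2*, which encodes a presynaptic neurexin (chr19:6495342-6500699), it was −0.66 (adjusted p = 0.00467 by limma). After centring on the library median the adjusted p-values from limma were 0.0955 to 0.185, with log2 differences of −0.54 to −0.44.

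The 4 higher domains all lay between bases 60886356 and 60955911 of chromosome 18, 3 at *Camk2a* and 1 near *Arsi*. Within *Camk2a* (chr18:60950066-60955911) the normalised pileup was 1.68 ± 0.219 in cKO and 0.687 ± 0.0246 in controls (SD, n = 5), a log2 difference of 1.28 ± 0.14 (SE; limma, adjusted p = 2.09e-09). At the promoter of *Camk2a* the log2 difference was 0.80 (adjusted p = 0.000262 by limma), in a shared domain that joins both broad domains of control neurons described above. Near *Arsi* it was 0.70 (adjusted p = 0.00391 by limma). The input background at the promoter domain is the one given above.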

How the data were processed

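H4K12ac ChIP-Seq of sorted hippocampal neuronal nuclei was analysed from 10 peak lists, 5 per genotype. The authors called peaks in each library against 1 pooled input per genotype with MACS 2.1.0.20140616, with a q cutoff of 0.1 per the file headers. The deposited columns used were the pileup at the summit (a signal in fragments), the fold enrichment over input, and −log10 p and −log10 q values. Read counts were not used here, so depth is known from the tags in the headers, 22864189 to 37923809 per library.

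Peaks on autosomes 1 to 19 (mm10) that overlapped by at least 1 base were merged. Covered bases are the share of a region that lies under peaks of a library, and pileup was given per 1000000 tags. Groups came from the sample labels, and replicate numbers name animals. Comparisons used exact permutation tests over mice with Benjamini-Hochberg adjustment over 8 tests, and limma 3.58.1 (R 4.3.3) on log2 pileup over all 23689 regions with Benjamini-Hochberg adjustment. On simulated data limma recovered 95% of 200 regions changed by 1 log2 unit, 43.5% of those changed by 0.6 and 0% of those changed by 0.3. There the noise was independent between regions, as many regions rose as fell, and no library was shifted as a whole. In the mice 89.1% of all 23689 regions had a negative log2 difference, so these rates need not hold for them. Other steps used Python 3.11.15, numpy 2.4.6, pandas 2.3.3 and matplotlib 3.10.9.

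Named were the 10 widest domains, the 5 with the highest control pileup, the 5 with the largest fall and the 5 with the largest rise in coverage, those at genes of 8 lists, the 3 regions on either side of the width limit, and the 5 domains with the smallest limma p in each direction. Some items that the rule names are not reported here. The rule, the domains and the gene lists were chosen with earlier results of these data known. Promoter sequences are RefSeq entries (GRCm38.p6), and none was printed for *Fam171a2*, *Pnma2* and *Setd1b*. Alternatives were other widths, a stricter q of 0.01, equal peak numbers, a peak in 4 control lists, single libraries left out, a replicate block, lane, centring, fold enrichment and scaling by fragment length.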

Additional observations from a re-analysis of the deposited data

Results flagged for a closer look

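Among 118 groups of 5 values looked at, 4 held a mouse far from the others, and chance alone would mark about 1 in 20 groups. In *Dscaml1*, the normalised pileup of control mouse 3 was 1.167, whereas the other controls had 0.9173 to 0.9847. In *Kdm4b*, control mouse 4 had 70.67% of the domain bases covered, against 89.09 to 93.21% in the other controls. In the same domain the pileup of control mouse 1 was 1.036, against 1.318 to 1.388. In *Klhl26* the pileup of *Tip60* cKO mouse 3 was 1.566, against 1.002 to 1.137 in the other *Tip60* cKO mice.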

How the results depend on the processing

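The number of broad domains was 5905 at a minimum width of 2000 bp, 651 at 4000 bp, 278 at 5000 bp and 1064 when chosen from *Tip60* cKO lists, where the difference in coverage was −3.862 percentage points. For shared domains the pileup relative to narrower regions reversed at 2000 bp (difference −0.01171, permutation p = 0.429). The difference in coverage within 500 bp of a TSS passed before adjustment at 2000 bp (−11.24), with q below 0.01 (−11.06), with equal peak numbers (−11.04) and without the domains near *Camk2a* (−11.11), the last chosen after seeing the data, and ran from −13.72 to −6.611 with 1 library left out, passing without *Tip60* cKO mouse 1 or 3 or control mouse 4. The share of covered bases passed at 5000 bp (0.8082) and with equal peak numbers (0.8059), and ran from 1.019 to 2.069 with 1 library left out, passing without *Tip60* cKO mouse 1 or control mouse 4. Median pileup did not pass as fold enrichment (−0.1528). With a replicate block, its difference of −0.1123 had p = 0.0625, the smallest that sign flips in an exact permutation of 5 pairs allow, and limma gave 287 lower domains. Deviations of pileup from the genotype mean were hardly correlated between same-numbered mice (correlations −0.0344 to 0.0675). With 5 mice per genotype this cannot settle whether numbers pair the animals, which the labels do not state. By limma 858 domains were lower at 2000 bp, 47 at 5000 bp, 0 after centring, 80 with fold enrichment, 91 with scaling by fragment length as well (chosen after seeing the data) and 81 to 522 with 1 library left out, and 8 were higher at 2000 bp and 20 with fold enrichment. The causes of these changes were not tested. The other 167 values were counted as unchanged, which does not mean that they stayed close to the main values. Differences with a permutation test among them kept their direction and their side of the threshold before adjustment. Counts had no such criterion, and 1216 broad domains without control mouse 2, against 1733, were among the 167. So were 207 lower domains by limma without *Tip60* cKO mouse 1, against 291. Coverage of broad domains was also counted as unchanged without *Tip60* cKO mouse 5, at −8.948 against −14.56 percentage points. *Tip60* cKO mouse 5 had both the fewest tags and the lowest coverage, and the part of depth was not tested.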
